A study of Mus musculus with 6 samples.

Results

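The genes described here are the mouse zinc finger genes whose symbol is Zfp followed by 3 digits, the first of them 9. The rule took 33 rows out of the 23282 gene rows of each count file. All 33 fall between Zfp930 and Zfp964. The study took mRNA from the hippocampus of C57BL/6 mice, 16 weeks old, and asked how it differs between mice with the genotype PHF2 t/g (3 libraries) and wild-type mice, WT (3 libraries). The label is read as a transgene of Phf2. The sources used here do not give its promoter, its copy number or the cells that carry it, nor whether each library is 1 animal. If the libraries share animals or RNA, the p-values below measure only the spread between these libraries. The assay was QuantSeq, in which a transcript is primed at its poly(A) tail and gives about 1 tag from its 3′ end, so counts need no division by length.

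Zinc finger proteins of the C2H2 type bind DNA through a row of small folds, each holding a zinc ion between a pair of cysteines and a pair of histidines. Many also carry a KRAB domain, which binds the corepressor TRIM28 (KAP1). TRIM28 brings the methyltransferase SETDB1, which places methyl groups on lysine 9 of histone H3 (H3K9), and the bound region, often a retroelement, is silenced. PHF2 removes methyl groups from the same lysine. The genes lie in clusters of related copies, and in other cell types their own coding regions are known to carry H3K9 methylation.

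The family name was checked against the reference proteins. Of the 33 genes, 32 have a coding transcript in GENCODE M21. Zfp939 is listed there as a pseudogene, but as protein coding in the RefSeq annotation. A KRAB pattern was found in 30 of the 32, and not in Zfp956 or Zfp957. The number of C2H2 fingers in the longest protein ran from 0 to 18, with a median of 11. Zfp945 had the 18, Zfp950 had 17 and Zfp956 had 6. The 0 belonged to Zfp935, whose annotated protein has 150 residues and a KRAB pattern, and to Zfp957, whose 3′ end shares 1.55% of its 50-base words with Tcf20.

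To show what these genes encode, the coding sequence of the first finger with the usual linker is given for Zfp950, Zfp952 and Zfp954, the 3 members with the smallest p-values below. The sequences are from GENCODE M21 transcripts (GRCm38), 5′ to 3′ on the coding strand, and capitals mark the codons of the zinc-binding cysteines and histidines. The lower-case end codes for the linker to the next finger.
Zfp950, codons 105 to 131: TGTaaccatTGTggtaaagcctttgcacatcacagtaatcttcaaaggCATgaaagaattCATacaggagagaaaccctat
Zfp952, codons 337 to 363: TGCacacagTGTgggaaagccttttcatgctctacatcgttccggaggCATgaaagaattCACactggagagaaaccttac
Zfp954, codons 200 to 226: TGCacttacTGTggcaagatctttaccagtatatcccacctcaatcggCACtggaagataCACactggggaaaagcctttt
The fingers of Zfp950 and Zfp952 had the same base at 56 of 81 positions. Zfp950 and Zfp954 matched at 42 positions, and Zfp952 and Zfp954 at 45. A finger with exactly this linker occurred 14 times in the protein of Zfp950, 5 times in that of Zfp952 and 2 times in that of Zfp954.

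The PHF2 t/g libraries held 6053363 to 8612720 counts, of which the members took 0.032% to 0.0337%. The WT libraries held 5512171 to 8844718 counts, with 0.0277% to 0.03% in the members. Levels are CPM, that is counts scaled to library size by the TMM method. Phf2 itself was at 35.5, 37.3 and 43.1 CPM in PHF2 t/g mice, against 38.3, 35.6 and 39.3 CPM in WT mice, so its tags did not separate the genotypes (log2 fold change 0.03; edgeR adjusted p = 0.929; exact two-sided permutation p = 0.9, where the smallest p possible is 0.1). A transgene without the endogenous 3′ end would not add to these tags, so Phf2 does not check the labels. All 14 hippocampal markers passed the low-count filter, and the granule cell marker Prox1 had counts in each library. WT replicate 2 stood apart, with a chi-square of 9.56 to 18.5 per gene against each other library and 2.95 to 9.14 among the others. It is also the deepest library. PHF2 t/g replicate 1 held 292 CPM of the choroid plexus transcript Ttr, against 1.29 to 4.46 CPM in the other 5 libraries.

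Most of the zinc finger genes were detected, at low levels. Counts were present for 32 of the 33 genes, and in all 6 libraries for 30. Of these genes, 26 passed the low-count filter and were tested. The median tested member was at 5.16 CPM, where the median over all 12831 tested genes was 20.1 CPM, and 19.5% of all tested genes lay below that member. Levels of the tested members ran from 1.71 CPM for Zfp951 to 67.3 CPM for Zfp950, a range of 39.2-fold. The 3 most abundant genes, Zfp950, Zfp941 and Zfp954, made up 44.8% of the summed level of all members. The tested members had a median coefficient of variation between libraries of 15.2% in PHF2 t/g and 14.5% in WT. For all tested genes it was 9.47% in PHF2 t/g and 12.1% in WT.

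**Figure D1:**
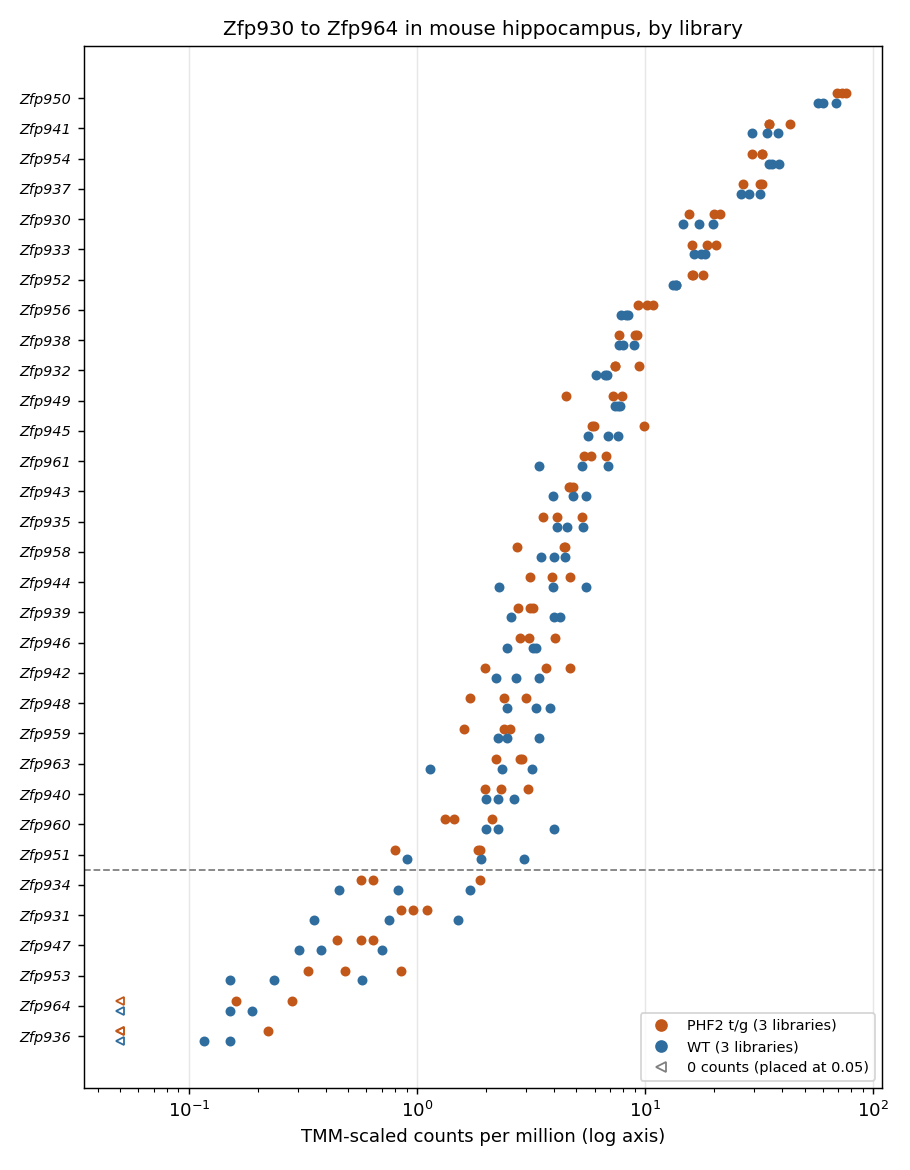
Level of each detected member in each library, in TMM-scaled CPM on a log axis, ordered by mean level; each point is 1 library, and open triangles stand for 0 counts (2 of them coincide for Zfp936 in PHF2 t/g). Genes under the dashed line did not pass the low-count filter; the genotypes lie apart in Zfp950, Zfp954, Zfp952, Zfp956 and Zfp932 among the tested genes.

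None of the 26 tested members differed between PHF2 t/g and WT by edgeR's quasi-likelihood test with the Benjamini-Hochberg adjustment over all 12831 genes, where 2.27% of all genes did. The smallest adjusted p was 0.268. At an unadjusted p under 0.05 there were 2 members, Zfp950 and Zfp952, or 7.69% of the 26, against 14.7% of all tested genes. The count past the threshold was also 0 by limma-voom, with 2 at an unadjusted p under 0.05, and by DESeq2, with 0. DESeq2 gave an adjusted p for only 4 of the members. The log2 fold changes ran from -0.70 (Zfp960) to 0.32, with 15 above 0 and 11 below. Their median was 0.071, and that of all tested genes was 0.020. Since scaling by library size alone moves the median of all genes to 0.121, changes of this size depend on the scaling. The median of the members was then 0.172, with 18 of the 26 above 0, as were 9160 of all 12831 tested genes.

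The data also bound how large an unseen change could be. For 22 of the 26 tested members, or 84.6%, the 95% interval of the fold change lay within 2-fold in both directions, against 86.2% of all tested genes. It lay within 1.5-fold for 8 of the 26, and for 7821 of all 12831 tested genes. The intervals of Zfp960, Zfp948 and Zfp951 reached beyond a 2-fold decrease and that of Zfp942 (-0.40 to 1.04 on the log2 scale) beyond a 2-fold increase. These 4 genes had 76 to 131 counts each over all 6 libraries, and a 2-fold change in those directions lies inside their intervals. The narrowest intervals belonged to the most abundant genes.

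**Figure D2:**
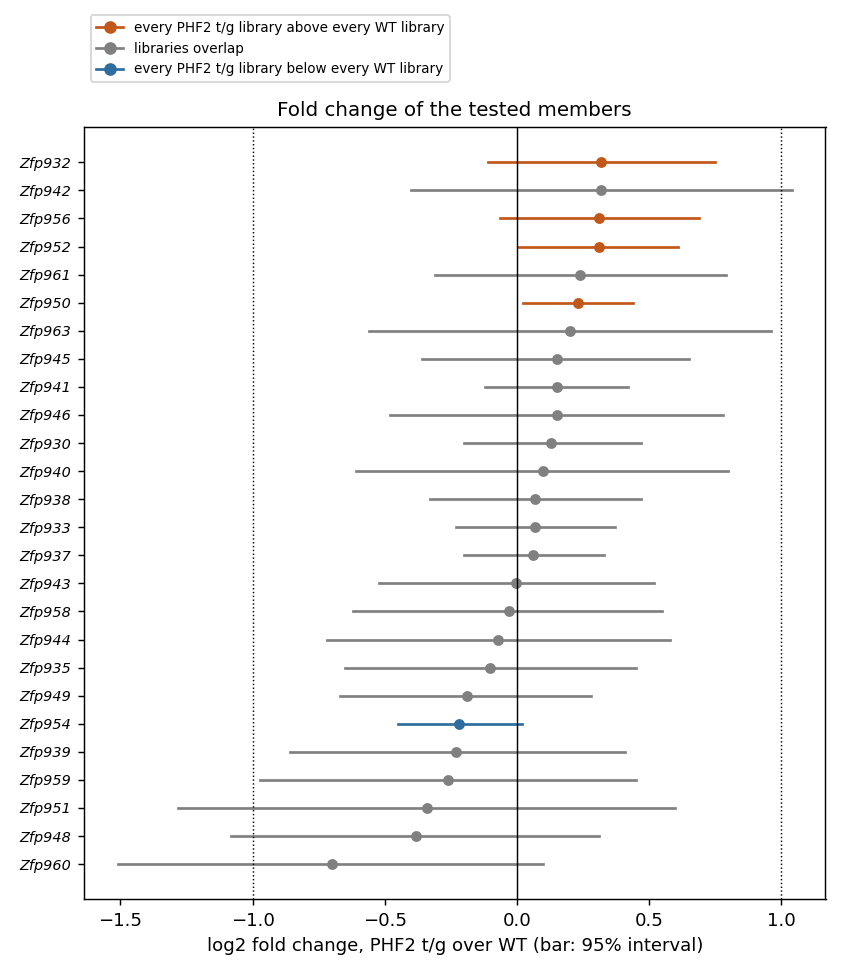
Log2 fold change of PHF2 t/g over WT for the 26 tested members, with the 95% interval from the edgeR fit as a bar; dotted lines mark 2-fold. Orange marks the 4 genes in which every PHF2 t/g library was above every WT library, blue the 1 gene in which each was below, and no adjusted p was under 0.268.

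In 5 of the 26 tested members the libraries of the genotypes did not overlap, 4 of them higher in PHF2 t/g and 1 lower. That is 19.2% of them, against 20.6% of all tested genes (10.1% higher and 10.4% lower). With library size alone the same 4 genes stayed apart and the lower one overlapped, where 20% of all tested genes were higher and 4.65% lower. The share of members that lie apart is thus near that of all genes.

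Zfp950 (chromosome 19, 61053840 to 61140840, minus strand, GRCm38) was the most abundant member, above 77.9% of all tested genes. Its values were 69.6, 72.6 and 75.6 CPM in PHF2 t/g, against 68.5, 57.1 and 60.1 CPM in WT. The lowest PHF2 t/g library lay just above the highest WT library, WT replicate 1. The log2 fold change was 0.23 (SE 0.0992, 95% interval 0.025 to 0.44; edgeR adjusted p = 0.268). With library size alone it was 0.33 (edgeR adjusted p = 0.0841), and with 1 library left out it ranged from 0.18 to 0.30 (adjusted p from 0.165 to 0.511).

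Zfp952 (chromosome 17, 32993129 to 33005457, plus strand) was at 16.2, 17.9 and 16.1 CPM in PHF2 t/g, against 13.7, 13.3 and 13.6 CPM in WT. The WT libraries differed little from each other, with an SD of 0.226 CPM, and all PHF2 t/g libraries were higher. The log2 fold change was 0.31 (SE 0.145, 95% interval 0.0033 to 0.61; edgeR adjusted p = 0.332). Leaving out 1 library gave 0.26 to 0.33, and the unadjusted p was then above 0.05 in each case.

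Zfp956 (chromosome 6, 47953390 to 47965300, plus strand), the member with fingers but no KRAB match, was at 10.2, 10.8 and 9.33 CPM in PHF2 t/g, against 8.38, 8.22 and 7.87 CPM in WT. Again no library crossed over, but the log2 fold change of 0.31 (SE 0.179) had an edgeR adjusted p of 0.435. An exon of Zfp956 overlaps one of Zfp783 on the same strand, so some tags may belong to that gene.

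Zfp932 (chromosome 5, 109996521 to 110010411, plus strand) is known in mouse embryonic stem cells to repress endogenous retroviruses, together with its neighbour Gm15446. It was at 9.44, 7.38 and 7.40 CPM in PHF2 t/g, against 6.66, 6.11 and 6.81 CPM in WT. All PHF2 t/g libraries were higher, with PHF2 t/g replicate 1 the highest; the log2 fold change of 0.32 (SE 0.205) did not pass (edgeR adjusted p = 0.497). It was 0.18 without PHF2 t/g replicate 1 and 0.13 with WT replicate 2 left out as well. Its 3′ end is not its own: 56.7% of its 50-base words recur in transcripts of other genes and 51.8% in Gm15446. Gm15446 was at 0.666, 1.85 and 2.25 CPM in PHF2 t/g, against 1.52, 1.64 and 2.12 CPM in WT, with no difference past the threshold (edgeR adjusted p = 0.868). The sources used here do not say how shared tags were divided between these genes, so both levels are uncertain.

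Zfp954 (chromosome 7, 7114690 to 7121488, minus strand) was the 1 member below WT in every library. It was at 29.5, 32.5 and 32.5 CPM in PHF2 t/g, against 35, 38.5 and 35.9 CPM in WT. The log2 fold change was -0.22 (SE 0.112, 95% interval -0.45 to 0.018; edgeR adjusted p = 0.381). With library size alone it was -0.11 and the genotypes overlapped.

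The other abundant members had overlapping libraries. Zfp941 (chromosome 7, 140807449 to 140822178) was at 34.9, 34.8 and 43.1 CPM in PHF2 t/g, against 38.3, 29.5 and 34.2 CPM in WT. Zfp937 (chromosome 2, 150218073 to 150240725) was at 26.8, 32.5 and 31.9 CPM in PHF2 t/g, against 28.6, 31.8 and 26.3 CPM in WT. The ranges of the genotypes overlapped in both genes, and an exon of Zfp941 overlaps Gm45785 on the same strand, so some tags may belong there. Zfp930 averaged 18.9 ± 3 CPM in PHF2 t/g, against 17.2 ± 2.56 CPM in WT (SD, n = 3 each). Zfp933 averaged 18.4 ± 2.21 CPM in PHF2 t/g, against 17.4 ± 0.987 CPM in WT. Zfp938 averaged 8.63 ± 0.85 CPM in PHF2 t/g, against 8.22 ± 0.646 CPM in WT. In the order of level, Zfp930 and Zfp933 thus differ by less than their spread, and so do Zfp941 and Zfp954 in WT. The edgeR adjusted p of these 5 genes (Zfp941, Zfp937, Zfp930, Zfp933 and Zfp938) was 0.642 to 0.906.

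Among the low members, Zfp960 (chromosome 17, 17064113 to 17089628) had the largest fold change. It was at 1.33, 2.13 and 1.45 CPM in PHF2 t/g, against 4, 2 and 2.27 CPM in WT. These values stand for 12, 15 and 9 counts in PHF2 t/g and 21, 17 and 15 counts in WT, and the libraries overlap because PHF2 t/g replicate 2 is above WT replicate 2. The log2 fold change was -0.70 (SE 0.384, 95% interval -1.51 to 0.10; edgeR adjusted p = 0.415). It was -0.39 without WT replicate 1, the library with the highest level, and -0.94 without PHF2 t/g replicate 2. Of the words at its 3′ end, 86.3% recur in Zfp97, so its tags can hardly be told from those of that gene. Zfp97 was at 1.67, 2.27 and 2.41 CPM in PHF2 t/g, against 1.52, 1.76 and 1.66 CPM in WT, with a log2 fold change of 0.32 (edgeR adjusted p = 0.738). The values of both genes point in opposite directions and neither passed.

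Zfp948 averaged 2.37 ± 0.648 CPM in PHF2 t/g, against 3.20 ± 0.679 CPM in WT (SD, n = 3 each; log2 fold change -0.38, edgeR adjusted p = 0.648). For Zfp948 it was -0.20 without PHF2 t/g replicate 2, -0.62 without PHF2 t/g replicate 1 and -0.79 with WT replicate 2 left out as well as PHF2 t/g replicate 1. Zfp942 averaged 3.44 ± 1.35 CPM in PHF2 t/g, against 2.79 ± 0.60 CPM in WT (log2 fold change 0.32, edgeR adjusted p = 0.719). The fold change of Zfp942 on the log2 scale was 0.072 without PHF2 t/g replicate 3 and 0.59 without PHF2 t/g replicate 2. Zfp961 averaged 5.98 ± 0.703 CPM in PHF2 t/g, against 5.19 ± 1.73 CPM in WT (log2 fold change 0.24, edgeR adjusted p = 0.727). An exon of it overlaps Cyp4f18 on the opposite strand. Since the use of strand in counting is not known, a tag from that overlap could belong to Zfp961 or Cyp4f18. Whether the overlap lies at a 3′ end, where tags arise, was not examined.

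Below the low-count filter were 7 genes. Zfp934 had 17, 4 and 4 counts in PHF2 t/g, against 9, 7 and 3 counts in WT. Zfp931 had 10, 6 and 6 counts in PHF2 t/g, against 8, 3 and 5 in WT, and the counts of both genes overlapped. Zfp947 had 22 counts over all 6 libraries, Zfp953 had 18, Zfp964 had 5 and Zfp936 had 4. Zfp957, the row without C2H2 fingers or KRAB match in the reference protein, had 0 counts in every library.

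The 33 genes lie on 12 chromosomes, with 10 of them on chromosome 17 and 5 each on chromosomes 7 and 8. With members under 1 Mb apart counted as neighbours, 12 genes fell into 3 clusters. The largest, on chromosome 17, holds Zfp948, Zfp942, Zfp943, Zfp947, Zfp944, Zfp946 and Zfp945, from 21567008 to 22867134. Its genes were read at similar low levels, 2.79 to 6.95 CPM for the 6 tested, and Zfp947 fell below the filter. Of these 6, 3 had a log2 fold change above 0 and 3 below (-0.38 to 0.32), and the smallest edgeR adjusted p among them was 0.648. Zfp942 and Zfp943 lie only 87 bases apart on opposite strands, and Zfp943 had a log2 fold change of -0.0034 (SE 0.249; edgeR adjusted p = 0.998). An exon of Zfp943 overlaps Gm9772 on the opposite strand, so a tag from there could belong to either. Whether that overlap lies at a 3′ end was not examined. The summed level of the cluster was 20.9 to 28.6 CPM in PHF2 t/g, against 23.9 to 25.5 CPM in WT.

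On chromosome 8, Zfp930, Zfp964 and Zfp963 form a second cluster with unequal levels. Zfp930 was at 18.1 CPM over all libraries and Zfp963 at 2.44 CPM, while Zfp964, which lies between them, had 5 counts in all. The 3′ end of Zfp963 shares 46.3% of its words with other genes, and 44.8% with Gm20422, which overlaps it on the same strand. Gm20422 has no row in the count files. How tags of this locus were counted is not known, so the level of Zfp963 is uncertain. The third cluster, Zfp935 and Zfp934 on chromosome 13, consists of overlapping genes on 1 strand. Every 50-base word at the annotated 3′ end of Zfp935 also occurs in Gm49359, which overlaps it on the same strand. Gm49359 has no row in the count files either.

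Because related zinc finger genes can share sequence, the 3′ ends were compared with all GENCODE M21 transcripts. Of the 33 members, 16 shared no 50-base word of their last 500 bases with another gene. More than 10% was shared by 9 and more than 50% by 3 (Zfp935, Zfp960 and Zfp932). Zfp935 shared its words with the overlapping Gm49359, and Zfp963 most of its shared words with the overlapping Gm20422. Such sharing does not show a separate related copy. Among 302 other numbered Zfp rows with a transcript, 46 shared more than 10%. Leaving out the members with 10% or more, 21 tested members remained, with 12 above 0, a median log2 fold change of 0.071 and 0 past the threshold. Zfp937, which shares 17.7% with Zfp442, was the most abundant of those left out.

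**Figure D3:**
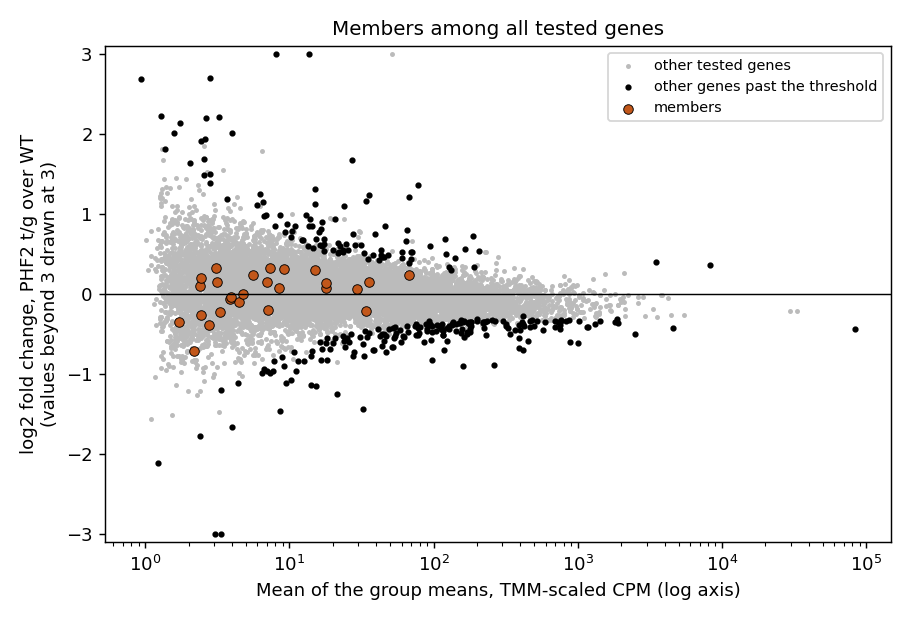
Log2 fold change of PHF2 t/g over WT against the mean level in TMM-scaled CPM (log axis) for all 12831 tested genes, with the 26 tested members in orange and other genes past the threshold in black. The members lie between -0.70 and 0.32, inside the cloud of genes at the same level.

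The members were set beside the other numbered zinc finger genes. Of 304 such rows 243 were tested, 1 was higher and 2 were lower in PHF2 t/g, or 1.23%, and 12.8% had an unadjusted p under 0.05. Their median log2 fold change was 0.013. The 3 genes, named after their values were seen, were Zfp143, a transcription factor that binds promoters, Zfp523 and Zfp13. Zfp143 rose to 10.2 ± 2.08 CPM in PHF2 t/g, against 5.70 ± 0.686 CPM in WT (SD, n = 3 each; edgeR adjusted p = 0.0428). Zfp523 fell to 198 ± 14.3 CPM in PHF2 t/g, against 252 ± 18.8 CPM in WT (edgeR adjusted p = 0.0329), and Zfp13 to 16.9 ± 2.09 CPM in PHF2 t/g, against 24.6 ± 2.22 CPM in WT (0.0494). With PHF2 t/g replicate 1, PHF2 t/g replicate 2 or WT replicate 3 left out the count of 3 became 0, and with PHF2 t/g replicate 3 left out it became 1. With library size alone 3 were past the threshold and all 3 were higher.

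The machinery through which KRAB domains act was read at higher levels, and no gene of it passed the edgeR test as run here. Of 23 corepressor genes 20 were tested, with 0 past the threshold, 9 above 0 and 11 below. An edgeR unadjusted p under 0.05 was found for 3 of the 20, or 15%, against 14.7% of all tested genes. DESeq2 called 2 of the corepressor genes. With library size alone 15 of the 20 were above 0, as were 9160 of all 12831 tested genes. Trim28, the KRAB-binding corepressor, averaged 31.7 ± 2.64 CPM in PHF2 t/g, against 28 ± 6.38 CPM in WT (SD, n = 3 each; edgeR adjusted p = 0.649). Setdb1 averaged 64 ± 7.20 CPM in PHF2 t/g, against 67.6 ± 8.25 CPM in WT (edgeR adjusted p = 0.796). The libraries of both genes overlapped.

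The smallest p-value in that list belonged to Chd3. Chd3, a remodelling ATPase that binds TRIM28, was at 533, 583 and 571 CPM in PHF2 t/g, against 707, 766 and 630 CPM in WT. All PHF2 t/g libraries were lower, with a log2 fold change of -0.32 (SE 0.0829) and an edgeR adjusted p of 0.0507. This call depends on the setting. The edgeR adjusted p was 0.049 with the filter at a CPM of 1 in 3 libraries, 0.00659 with no low-count filter and 0.0324 without WT replicate 3, and by DESeq2 it was 0.0176. It was 0.158 with library size alone, 0.323 without PHF2 t/g replicate 1 and 0.252 without both that library and WT replicate 2, by edgeR in each case.

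Of 14 other KRAB zinc finger genes, several with described DNA targets, 9 were tested and 0 passed. An edgeR unadjusted p under 0.05 was found for 3 of the 9, or 33.3%, against 14.7% of all tested genes. The count was also 3 by limma-voom and with library size alone in edgeR, and 0 by DESeq2. With 1 library left out in edgeR it ran from 0 (without PHF2 t/g replicate 1) to 4 (without WT replicate 1). It was 1 without WT replicate 2 and 1 without WT replicate 3. The median log2 fold change of the 9 was 0.210, against 0.020 for all tested genes. Zfp708 averaged 1.85 ± 0.337 CPM in PHF2 t/g, against 0.78 ± 0.519 CPM in WT (SD, n = 3 each; log2 fold change 1.32, edgeR adjusted p = 0.185). Zfp30 averaged 12.4 ± 1.04 CPM in PHF2 t/g, against 16 ± 2.21 CPM in WT (log2 fold change -0.39, edgeR adjusted p = 0.249). Gm15446, above, belongs to this list too.

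Some markers of neighbouring tissues differed between the genotypes in the same libraries, at the threshold that 2.27% of all tested genes passed. Of 7 tested hypothalamus markers 4 were higher in PHF2 t/g (Oxt, Avp, Trh and Irs4). A log2 fold change below 0 was found for 2 of the 7, down to -0.99, and 1 marker was lower in every PHF2 t/g library. The summed level of the list was 73.7 to 79.9 CPM in PHF2 t/g, against 21.5 to 27.6 CPM in WT. Otp was at 0 in all libraries. Of 11 tested striatum markers 4 were higher (855 to 978 CPM summed in PHF2 t/g, against 654 to 752 CPM in WT). The log2 fold change was above 0 in 10 of these 11 and below 0 in 1. The striatum marker Drd2 had 4 counts over all 6 libraries and was not tested. Also higher were 2 of 11 leptomeningeal markers (467 to 548 CPM in PHF2 t/g, against 312 to 404 CPM in WT). So were 2 of 16 endothelial and mural markers (220 to 234 CPM in PHF2 t/g, against 174 to 209 CPM in WT). Of 13 myelin markers 2 were lower (2495 to 2533 CPM summed in PHF2 t/g, against 2271 to 2549 CPM in WT), 1 of 14 hippocampal markers was higher (Wfs1), and 0 of 9 astrocyte, 10 microglia and 4 choroid plexus markers passed. The part of these differences in the member values was not tested. In bulk tissue, fewer cells of a type and less RNA per cell cannot be told apart.

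Summed over all 33 genes, the level was 306, 312 and 328 CPM in PHF2 t/g, against 315, 288 and 287 CPM in WT, so the genotypes overlapped through WT replicate 1. With library size alone the sums were 320, 321 and 337 CPM in PHF2 t/g, against 300, 277 and 280 CPM in WT, and did not overlap. Without Zfp950 the TMM-scaled sums were 236, 240 and 253 CPM in PHF2 t/g, against 246, 230 and 227 CPM in WT. Whether the summed level differs thus depended on the scaling.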

How the data were processed

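Each library has 1 deposited file of raw counts by gene symbol, which the authors did not normalize. Per the labels' protocols, RNA was isolated with Trizol and made into QuantSeq libraries, and the submitters' processing notes name Bowtie2, edgeR and mm10, without versions. The sources used here do not name the counting program, its annotation or its use of strand. All 23282 rows entered, including 44 that repeat a symbol.

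Groups and replicate numbers came from the sample titles. Genes were kept by filterByExpr, scaled by TMM and tested on all 6 libraries with the quasi-likelihood test of edgeR 4.0.16 (R 4.3.3), with a robust glmQLFit and genotype as the only term. P-values were adjusted by Benjamini-Hochberg over 12831 genes, with a threshold of 0.05. CPM is relative to the counts of tested genes times the TMM factor. The procedure was tested on simulated data. Alternatives used DESeq2 1.42.0, limma 3.58.1 (voom), other scalings, filters and fits, a replicate block and 1 library left out.

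Positions, fingers (the C2H2 spacing of cysteines and histidines), KRAB matches (a pattern of the A box) and shared 50-base words in the last 500 transcript bases came from GENCODE M21 (GRCm38). All 33 symbols matched it by name. No genome sequence was used.

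The members, gene lists and tests were chosen with earlier results of these data known. Named members are the 10 tested genes with the highest level, the 10 with the smallest p, the 5 untested genes with most counts and any at 0; Phf2; and in each KRAB list the 2 smallest p with Trim28 and Setdb1. Other genes were named after their values were seen. One gene that this rule takes from the corepressor list is not reported here.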

Additional observations from a re-analysis of the deposited data

How the results depend on the processing

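The count of 0 members past the threshold was the same under every alternative run: library size alone or the size factors of DESeq2 in edgeR, a non-robust fit, no low-count filter, a filter at a CPM of 1 in 3 libraries, the replicate block, DESeq2, limma-voom, and each library left out in turn (0 to 0). It was also 0 in fits added after seeing the data. These left out WT replicate 2, which stood apart, together with PHF2 t/g replicate 1, which was high in Ttr, or the rows Rn45s, Lrrc17 and Akap5. The smallest adjusted p of any member was 0.0841, for Zfp950 with library size alone. DESeq2 gave an adjusted p for only 4 members, so its values for the others could not be set against the threshold. Of 224 values of 14 tested named members under these alternatives, 221 kept direction and 0 were called. The other 3 changed sign near 0. With 1 library left out, the log2 fold change of Zfp937 ranged from -0.0097 (without WT replicate 3) to 0.15, that of Zfp933 from -0.0077 (without PHF2 t/g replicate 3) to 0.16, and that of Zfp961 from -0.016 (without WT replicate 2) to 0.46. Phf2 ranged from -0.051 to 0.092 with 1 library left out, the negative values being -0.051 and -0.012.

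Counts elsewhere moved more. Over all genes, 291 were called. The count was 606 without the low-count filter, 149 in the non-robust fit, 162 by limma-voom and 140 without both PHF2 t/g replicate 1 and WT replicate 2. With 1 library left out it was 49 to 392. It was 49 without PHF2 t/g replicate 1, 106 without PHF2 t/g replicate 2 and 116 without PHF2 t/g replicate 3. The 291 held 100 higher genes, and the 277 called with library size alone held 207; DESeq2 called 270, of which 50 were higher. The other numbered Zfp rows had 3 calls, and 9 without the low-count filter. They had 0 in the non-robust fit, by limma-voom and without both PHF2 t/g replicate 1 and WT replicate 2. With 1 library left out they had 0 to 4. The corepressor genes had 0 calls, 1 with library size alone, 3 without the low-count filter, 1 with the CPM filter, 2 by DESeq2 and 0 to 1 with 1 library left out, the 1 being without WT replicate 3. The cause was not tested.

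Deviations of same-numbered libraries from their group means correlated at -0.00445, 0.123 and 0.0846, and those of unlike-numbered libraries at -0.126 to 0.0671. Deviations within a group of 3 sum to 0, so these values cannot decide whether the replicate numbers pair the samples. The replicate block gave 299 calls over all genes, 0 members and 1 corepressor gene, Chd3 (edgeR adjusted p = 0.0387). Intervals were wider for members under 10 CPM than for those above. Of the 19 tested members under 10 CPM, 15 or 78.9% had an interval within 2-fold, against 63.7% of all tested genes under 10 CPM.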
